A study of Mus musculus with 9 samples.

Results

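The cytosolic ribosomal protein genes were examined in RAW264.7 cells, a mouse macrophage line that can be driven to osteoclasts, the multinucleated cells that resorb bone. A gene was a member if its symbol was Rpl or Rps followed by a digit, or Rplp0, Rplp1, Rplp2 or Rpsa. Symbols containing "-ps" (pseudogenes) and the kinases whose symbols begin with Rps6k were left out. This rule took 94 of the 56691 genes in the table without using any measured value. Of these, 77 encode canonical subunit proteins, 46 of the large and 31 of the small subunit. Another 16 are paralogs or retrogenes, and Rps19bp1 encodes a protein that binds a ribosomal protein and is no subunit itself. Fau, which encodes a ribosomal protein fused to a ubiquitin-like protein, has no symbol of this form and is not among the 94.

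There were 3 groups, each cultured for 3 days: untreated cells (control), cells given RANKL, the cytokine that induces osteoclast differentiation, and cells given RANKL together with uridine (UD), a pyrimidine nucleoside. Each group had 3 libraries of total RNA, which the series calls biological replicates. All 9 libraries came from this 1 cell line. Nothing in the sources used here says whether the replicates were separate cultures, so a p-value measures the spread between these libraries, which may be technical. The doses of RANKL and UD are not given with the samples.

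The ribosome reads mRNA in its small subunit and joins amino acids in its large subunit, and each subunit is built from ribosomal RNA and a fixed set of proteins present mostly in single copies. The cell therefore makes these proteins in matched amounts, and their mRNAs are among the most abundant of a growing cell. Most of these mRNAs begin with a 5′ terminal oligopyrimidine (TOP) tract, a C followed by a run of C and T (U in the RNA), through which mTORC1 and LARP1 set their translation and storage.

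Reference start sites of some members described below are shown, with runs of C and T near them marked. They were chosen singly, and large changes such as those of Rplp1, Rps21 and Rps25 are not shown. The windows shown therefore cannot tell whether a run goes with a change. Each window below runs from 15 bases before to 15 bases after the annotated start on the transcribed strand (RefSeq, GRCm38.p6). Capitals mark a C followed by at least 5 bases that are each C or T, searched on that strand only. Such a run may lie anywhere in the 30 bases and need not be the TOP tract of the mRNA. In Rpl4 and at the first start of Rps27l it ends before the annotated start, and in Rps12 it begins after it. The first 4 were among the largest falls in RANKL + UD against RANKL. Rps6 encodes the ribosomal protein that S6 kinase phosphorylates, Rplp0 and Rpl41 rose with RANKL and were not lower with UD, and Rps27, Rps27l and Rpl7l1 bear on the paralogs.
Rps12 (chr10:23787195-23787224, minus strand): taccgtcatgcggccaccgccggCCTTTTC
Rpl12 (chr2:32961697-32961726, plus strand): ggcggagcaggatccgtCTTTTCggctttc
Rpl4 (chr9:64173372-64173401, plus strand): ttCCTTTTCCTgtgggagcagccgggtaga
Rpl13a (chr7:45128731-45128760, minus strand): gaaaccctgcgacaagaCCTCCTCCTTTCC
Rps6 (chr4:86857353-86857382, minus strand): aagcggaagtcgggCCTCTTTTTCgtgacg
Rplp0 (chr5:115559452-115559481, plus strand): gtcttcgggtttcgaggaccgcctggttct
Rpl41 (chr10:128549154-128549183, minus strand): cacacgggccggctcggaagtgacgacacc
Rps27 (chr3:90213634-90213663, minus strand): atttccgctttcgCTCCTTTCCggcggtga
Rps27l, first start (chr9:66946071-66946100, plus strand): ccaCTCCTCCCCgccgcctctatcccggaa
Rps27l, second start (chr9:66946398-66946427, plus strand): accatgggcttcagggtcactaacgggcct
Rpl7l1 (chr17:46782642-46782671, minus strand): gtgaggctgcgcaagcgcagtagctgaagc
A window was given for 69 of the 94 members. Such a run was present in at least 1 window of 39 of the 69 (56.5%), against 25.5% of the 27025 genes with a window.

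The libraries held 15951800 to 19746862 counts. FPKM is the count of a gene scaled to its exonic length and to the depth of the library. A gene was tested where 3 or more libraries had an FPKM of 1 or above, as 11995 genes did. Of the 94 members 87 passed, including all 77 canonical genes, 9 of the 16 paralogs and retrogenes, and Rps19bp1. Rpl10l, Rpl39l, Rps12l1 and Rps4l had 0 counts in every library, and Rpl3l, Rpl32l and Rps23rg1 had counts below the filter. A gene was called higher or lower at an adjusted p under 0.05 in edgeR's quasi-likelihood test, adjusted over the 11995 genes with Benjamini-Hochberg's method. The summed FPKM of 8 macrophage markers was 9420 to 10012 in control, 2528 to 2772 in RANKL and 2205 to 2339 in RANKL + UD. Most of it was Lyz2 (7818 to 8299 in control). Of the 8 markers 7 were lower in RANKL than in control, and Cd68 was higher, by 0.60 ± 0.06 on the log2 scale (adjusted p = 1.07e-08). The summed FPKM of 8 osteoclast markers was 46.7 to 49.9, 2639 to 2843 and 1665 to 1702. Of these osteoclast markers 7 were tested, and all 7 were higher in RANKL than in control and lower in RANKL + UD than in RANKL. The summed FPKM of 6 stroma markers stayed at or under 0.58 and that of 4 lymphocyte markers at or under 0.29 in every library, and 3 of the lymphocyte markers had 0 counts throughout. Genes of the mitochondrial chromosome took 3.67 to 4.03% of counts in control and 4.46 to 4.71% in the other libraries. In bulk RNA, fewer cells of a type and less RNA per cell cannot be told apart, and the part that cell state plays in the results below was not tested.

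The members together took 4.80%, 4.62% and 4.50% of all counts in the control libraries. In RANKL the shares were 5.02%, 4.99% and 5.45%, each above the highest control library. In RANKL + UD they were 5.03%, 4.57% and 4.56%, so replicate 1 lay among the RANKL libraries and replicates 2 and 3 among the controls. The means were 4.64% ± 0.15, 5.15% ± 0.26 and 4.72% ± 0.27 (SD, n = 3 each). Over the 3 groups the shares did not differ by a one-sided exact permutation test (p = 0.1, 280 divisions of the 9 libraries, smallest possible p = 0.00357). With a total scaled by edgeR's TMM factors the same exact permutation test gave p = 0.025. Without RANKL + UD replicate 1 the exact permutation p was 0.0286. RANKL replicate 3 stood above the mean of its other 2 libraries in 73 of the 77 canonical genes, with a median log2 difference of 0.13. RANKL + UD replicate 1 did so in 71 of the 77, with a median of 0.16. In that library the difference was larger for genes with less exonic sequence (Spearman's rho = -0.33 over 77 genes of 1 library, given as a description). Such a link was not particular to it. Spearman's rho was 0.36 in RANKL + UD replicate 3, 0.175 in RANKL + UD replicate 2 and -0.21 in RANKL replicate 3. In the remaining libraries it was -0.11 to 0.09.

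**Figure D1:**
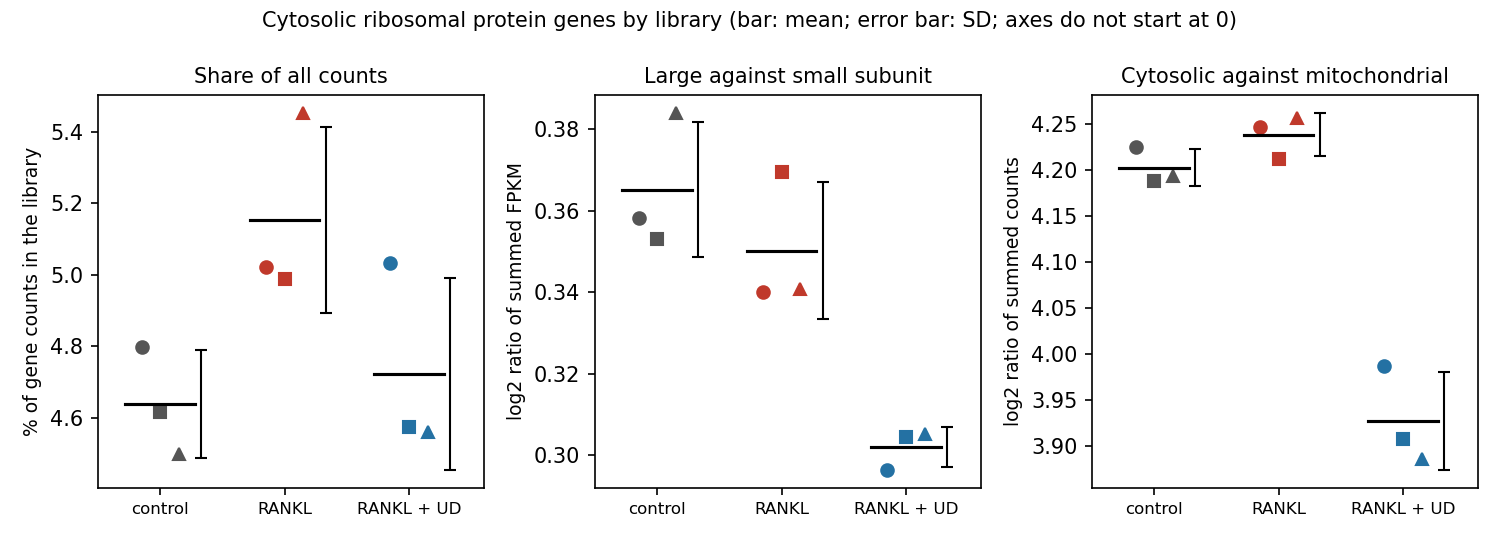
The 9 libraries by group, with the share of all counts on the members (left, %), the log2 ratio of summed large to small subunit FPKM (middle) and the log2 ratio of summed cytosolic to mitochondrial ribosomal protein counts (right). Circles, squares and triangles are replicates 1, 2 and 3, bars are means and error bars SD. The RANKL shares (4.99 to 5.45%) lie above the control shares, and both ratios are lowest in the 3 RANKL + UD libraries.

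Levels differed widely between members, although the ribosome holds most of these proteins once. FPKM divides by the whole exonic length of a gene in the annotation rather than by the length of its mRNA, which limits comparisons between genes. The mean FPKM over the 9 libraries ran from 2.33 for Rpl21 to 1739 for Rps3a1 among the canonical genes, with a median of 249. The median of all tested genes was 7.03, and 76 of the 77 canonical genes lay above it. The highest levels after Rps3a1, of the small subunit, were those of Rpl4 (1596), of the large subunit, and Rps15 (1135), of the small subunit. The lowest tested members after Rpl21 were Rpl29 (9.44) and Rps19bp1 (9.64). The table lists 15 pseudogenes named for Rpl21, 3 for Rpl29, 2 for Rps15 and 0 for Rps3a1 and Rpl4. Rps12 and Rpl31, whose changes are given below, each had 24, the most of any member. Where reads match both a gene and its pseudogene copies, the counting can lose or move them, so low levels of this kind are uncertain. The same limit applies to the changes of members with many copies, such as Rps12 and Rpl31. Over the 77 canonical genes the number of pseudogenes and the mean FPKM had a Spearman's rho of -0.19, and exonic length and mean FPKM one of -0.39. Both are descriptions across genes of the same libraries.

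RANKL against control asks what changes as macrophages are driven towards osteoclasts. Here 53 of the 87 tested members were higher and 1 was lower, where 27.3% of all 11995 genes were higher and 30.2% lower. The median log2 fold change over the tested members was 0.19, a median change of 14.4%, and that over all tested genes was -0.03. The 3 RANKL libraries lay above all 3 control libraries in scaled counts for 49 of the 87 and below them for 1, against 28.9% and 32.1% of all genes. The changes were small: the largest was 0.57 on the log2 scale. Among the canonical genes, 26 of 31 in the small subunit were higher (median log2 fold change 0.26) and 24 of 46 in the large subunit (median 0.14), with none lower in either. These medians depend on how the libraries are scaled. The TMM factors were 0.959 to 0.963 in RANKL and 1.01 to 1.03 in the other libraries. With total counts in their place, 33 members were higher and 1 lower, against 21.6% and 36.8% of all genes. Of the genes called in all, 47.5% were higher with TMM and 36.9% with total counts. The distance of the members' median from the median of all tested genes was 0.22 with either scaling. A change of scaling moves all genes of a comparison by about the same amount, so this distance could hardly have changed.

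The stalk is the flexible arm of the large subunit that recruits the GTP-driven factors of translation, and all 4 of its genes were higher in RANKL. Rplp1, which encodes P1, one of the paired acidic proteins of the stalk, had an FPKM of 606, 630 and 544 in control and of 764, 835 and 883 in RANKL. The groups did not overlap, and the rise of 0.57 ± 0.07 (log2, SE; adjusted p = 3e-07) was the largest among the members. Rplp0 anchors P1 and P2 to the ribosome and had an FPKM of 369, 381 and 441 in control and of 460, 508 and 506 in RANKL. It rose by 0.39 ± 0.06 on the log2 scale (adjusted p = 5.6e-06). Rpl12, at the base of the stalk, rose by 0.30 ± 0.05 (adjusted p = 1.57e-05). Rplp2, which encodes P2, rose by 0.18 ± 0.06 (adjusted p = 0.0107), a call that total counts ended (adjusted p = 0.169), as did leaving out control replicate 2 (adjusted p = 0.0781) and limma on log2(FPKM + 1) (adjusted p = 0.248).

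Outside the stalk, the largest rises were in Rps21, Rpl41, Rps12 and Rps25. Rps12, a small subunit protein, had an FPKM of 81.6, 83.3 and 82.4 in control and of 108, 108 and 110 in RANKL. Its log2 fold change was 0.48 ± 0.06 (SE; adjusted p = 1.36e-06). Rpl41, which encodes a very short peptide of the large subunit, had an FPKM of 526, 522 and 470 in control and of 677, 658 and 700 in RANKL, a rise of 0.51 ± 0.05 (adjusted p = 3.88e-08). Rps21, of the small subunit, rose by 0.53 ± 0.09 (adjusted p = 1.83e-05) and Rps25, a small subunit protein used in initiation from internal ribosome entry sites, by 0.41 ± 0.07 (adjusted p = 5.6e-05). For these 4 genes no RANKL library overlapped a control library.

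Other members with a known role changed less. Rpl5 and Rpl11 form the 5S particle with 5S ribosomal RNA, which also binds the p53 inhibitor MDM2 when it is free of the ribosome. Rpl5 rose by 0.14 ± 0.04 on the log2 scale (adjusted p = 0.0108), and Rpl11 did not pass the test (log2 fold change 0.09 ± 0.05, adjusted p = 0.166). Rps6 rose by 0.17 ± 0.05 (adjusted p = 0.00291), and Rps27a, whose protein is made as a fusion with ubiquitin, rose by 0.25 ± 0.07 (adjusted p = 0.00742). With total counts the adjusted p was 0.342 for Rpl5, 0.109 for Rps6 and 0.064 for Rps27a, and with limma on log2(FPKM + 1) it was 0.372, 0.168 and 0.205, so none of the 3 calls held. Of 10 genes listed for the peptide tunnel and its exit 6 were higher and none lower, with log2 fold changes from 0.05 to 0.35. Of the 7 genes whose proteins lie at the mRNA channel and decoding region 6 were higher and none lower, from 0.11 to 0.41. Of all tested genes 27.3% were higher and 30.2% lower, and of the canonical genes 64.9% were higher and none lower. Whether either list differed from the canonical genes was not tested.

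**Figure D2:**
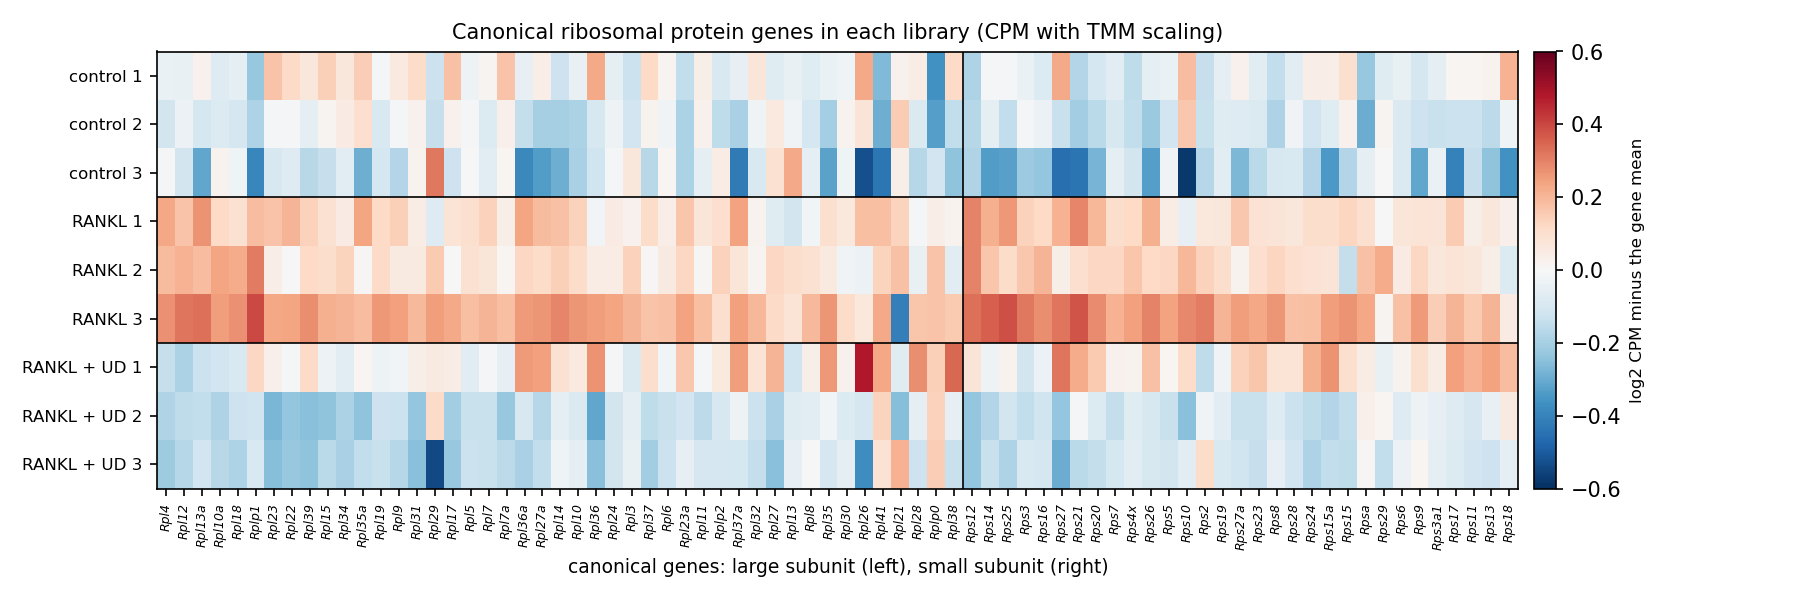
Canonical genes (76 columns, large subunit left and small subunit right, ordered within each by the difference of RANKL + UD from RANKL) in each of the 9 libraries (rows). Colour is the log2 of the scaled count minus the gene's mean over the libraries. Over all 77 canonical genes, RANKL replicate 3 is above the mean of its other 2 libraries in 73 and RANKL + UD replicate 1 in 71, and Rplp0 and Rpl41 stay high in RANKL + UD.

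RANKL + UD against RANKL asks what uridine changes in cells that receive the cytokine. Of the 87 tested members 48 were lower and 2 were higher, where 20.2% of all tested genes were lower and 18.6% higher. The median log2 fold change of the members was -0.18, that of all tested genes 0.01, and the median change of the members was -11.9%. The 3 RANKL + UD libraries lay below all 3 RANKL libraries in scaled counts for 38 of the 87, against 24.9% of all genes. In the large subunit 28 of 46 canonical genes were lower (median -0.20), in the small subunit 19 of 31 (median -0.18), and none was higher in either. Both comparisons use the RANKL libraries, so a library effect in RANKL would move both in opposite directions. Without RANKL replicate 3, 34 members were lower here, and 43 were higher in RANKL against control. Without RANKL + UD replicate 1, which held high member levels, 63 were lower. Without RANKL + UD replicate 2, 31 were lower, and without replicate 3, 34. With total counts 23 were lower and 2 higher, against 14.2% and 27.9% of all tested genes, and 66.2% of all calls were then higher against 48.0% with TMM. The members' median stood 0.19 below that of all tested genes with either scaling, a distance that a change of scaling can hardly move.

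Among the largest falls were those of Rps12, Rpl4, Rpl12 and Rpl13a. Rpl4, a large subunit protein that reaches into the peptide tunnel, had an FPKM of 1568, 1510 and 1613 in control, of 1789, 1743 and 1847 in RANKL and of 1462, 1435 and 1397 in RANKL + UD. Each group was thus separate from the others, with RANKL + UD below control. The log2 fold change of RANKL + UD against control was -0.13 ± 0.04 (adjusted p = 0.0201). That call was lost without control replicate 1 (0.0576), RANKL + UD replicate 2 (0.0652) or RANKL + UD replicate 3 (0.104), and with limma on log2(FPKM + 0.1) (0.0517). The fall against RANKL was 0.41 ± 0.04 (adjusted p = 2.71e-07).

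Rps12 and Rpl13a returned towards control. The FPKM of Rps12 in RANKL + UD was 97.6, 79.6 and 79.5, with replicates 2 and 3 just under the lowest control library and replicate 1 between the groups. It fell by 0.43 ± 0.06 on the log2 scale (adjusted p = 1.82e-05). Rpl13a, which encodes a large subunit protein also known for silencing inflammatory mRNAs when released, had an FPKM of 123, 114 and 97.9 in control, of 138, 130 and 144 in RANKL and of 110, 110 and 112 in RANKL + UD. It fell by 0.39 ± 0.06 (adjusted p = 4.92e-05). Rpl12 had an FPKM of 188, 193 and 209 in RANKL and of 155, 161 and 157 in RANKL + UD, under its control values of 171, 174 and 165. It fell by 0.41 ± 0.05 (adjusted p = 8.24e-07), so that the base of the stalk was among the largest falls. Against control the log2 fold change of Rpl12 was -0.11 ± 0.05 and did not pass the test (adjusted p = 0.0613). It passed without control replicate 3 (0.0219) or RANKL replicate 3 (0.0236) and in a fit of only the 6 libraries (0.0392).

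Rplp0 and Rpl41 did not show this fall. This was not particular to them: of the 77 canonical genes 30 were not called lower, and 4 had a log2 fold change above 0. The FPKM of Rplp0 in RANKL + UD was 523, 528 and 528, above every RANKL library in FPKM. In scaled counts the groups overlapped, and the log2 fold change against RANKL was 0.01 ± 0.06 (SE; adjusted p = 0.887). Rpl41 had an FPKM of 743, 700 and 675 in RANKL + UD, overlapping RANKL, with a log2 fold change of -0.03 ± 0.05 (adjusted p = 0.721). The other stalk genes differed from Rplp0: Rplp1 fell by 0.32 ± 0.07 (adjusted p = 0.000589) and Rplp2 fell by 0.16 ± 0.06 (adjusted p = 0.0324). With limma on log2(FPKM + 1) the adjusted p of Rplp1 was 0.0621 and that of Rplp2 0.398, so both calls were lost. The call of Rplp2 was also lost with total counts (adjusted p = 0.322), and its adjusted p was 0.0553 without RANKL replicate 1, 0.102 without RANKL replicate 2, 0.136 without RANKL + UD replicate 2 and 0.14 without RANKL + UD replicate 3.

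Rpl5 fell by 0.23 ± 0.04 on the log2 scale (adjusted p = 0.000215) and Rpl11 fell by 0.18 ± 0.05 (adjusted p = 0.011). The call of Rpl11 was lost with total counts (adjusted p = 0.173), with limma on log2(FPKM + 1) (0.28), without RANKL replicate 3 (0.0527) and without RANKL + UD replicate 2 (0.0791). Rps6 had an FPKM of 925, 913 and 995 in RANKL and of 941, 890 and 912 in RANKL + UD, which overlap, and fell by 0.13 ± 0.05 with TMM scaling (adjusted p = 0.0273). With total counts its adjusted p was 0.444, with limma on log2(FPKM + 1) 0.50, and it was 0.101 without RANKL replicate 3, 0.139 without RANKL + UD replicate 2 and 0.0858 without RANKL + UD replicate 3. Rps27a did not pass the test (-0.18 ± 0.07, adjusted p = 0.0656), but did without RANKL + UD replicate 1 (adjusted p = 0.00666), RANKL replicate 2 (0.03), control replicate 1 (0.0489) or control replicate 3 (0.0213), with RLE size factors (0.0458), with no filter (0.00179), with a replicate block (0.0202) and in a fit of only the 6 libraries (0.0282). Of the 10 listed tunnel genes 8 were lower and none higher, from -0.41 to -0.02. Of the 7 decoding region genes 6 were lower and none higher, from -0.32 to -0.16. Of all tested genes 20.2% were lower and 18.6% higher, and of the canonical genes 61.0% were lower and none higher.

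The reference windows may be read beside these values as a description only. Of the 36 tested members with a C and T run of the kind shown above, 22 were lower in RANKL + UD than in RANKL, with a median log2 fold change of -0.20. Of the 28 tested members with a window and no such run 15 were lower, with a median of -0.17. The lowest log2 fold change was -0.43 with and -0.35 without the run. For RANKL against control the medians were 0.24 with and 0.18 without the run. Annotated starts can lie some bases from the starts used in these cells.

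**Figure D3:**
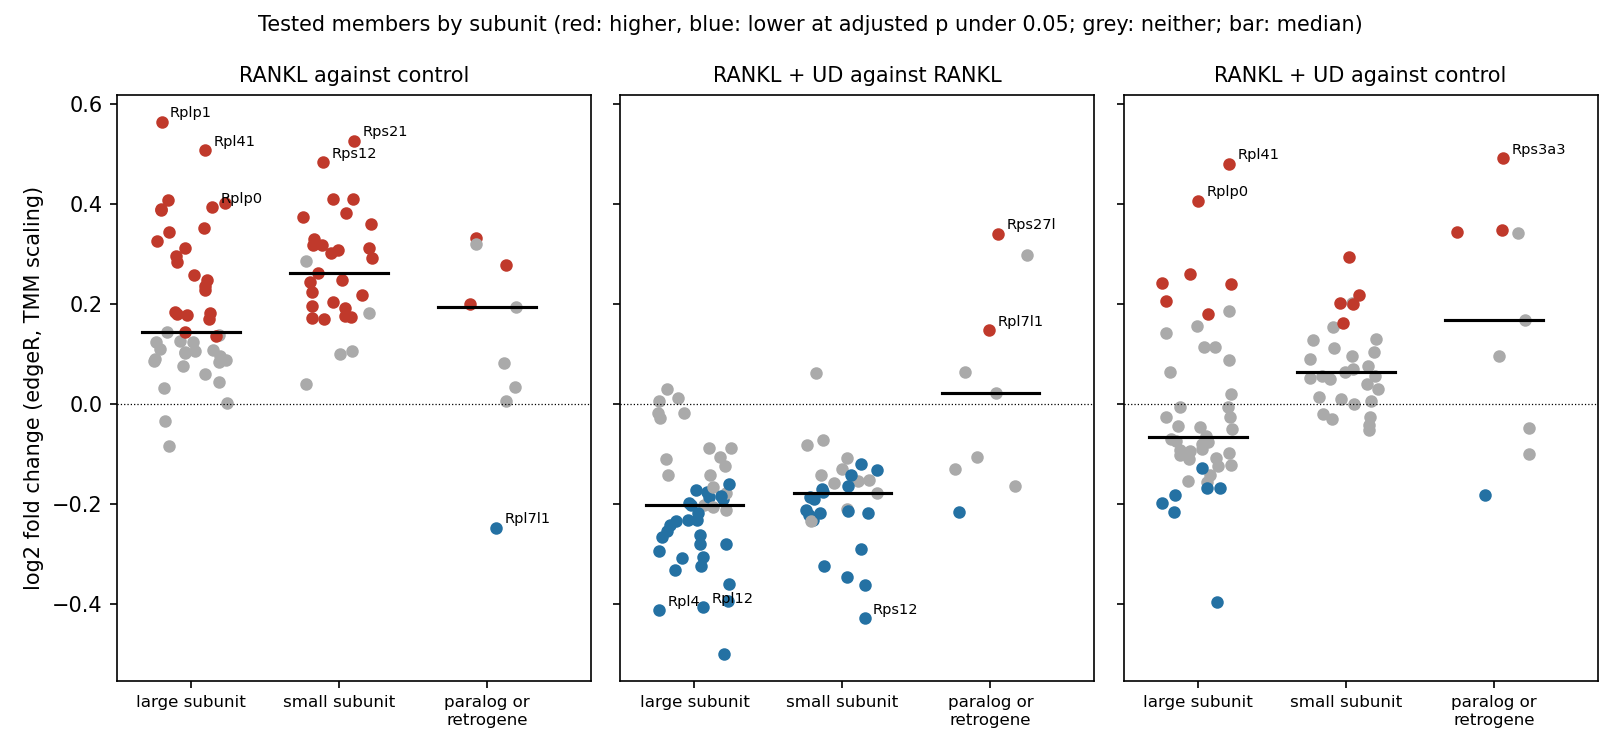
Log2 fold changes of the tested members (points, edgeR with TMM scaling) in the 3 comparisons, split into canonical large subunit genes (46), canonical small subunit genes (31) and paralogs or retrogenes (9). Red and blue points are called higher and lower at an adjusted p under 0.05, grey points are not called, and bars are medians. The subunit medians are 0.14 and 0.26 in RANKL against control and -0.20 and -0.18 in RANKL + UD against RANKL.

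Against control, RANKL + UD had 15 members higher and 8 lower of 87, below the 26.7% and 27.3% of all tested genes, with a median log2 fold change of 0.02. The RANKL + UD libraries lay above all 3 control libraries in scaled counts for 11 members and below for 9, against 29.7% and 30.4% of all genes. With total counts 17 were higher and 9 lower, against 26.5% and 27.4%. The canonical small subunit had 5 of 31 higher and none lower (median 0.07), and the large subunit 7 of 46 in each direction (median -0.07). Among the largest falls were those of Rpl7a, Rpl31, Rpl23 and Rpl6l. Rpl7a, a large subunit protein, fell by 0.21 ± 0.06 on the log2 scale (SE; adjusted p = 0.0033). Rpl31, Rpl23 and the retrogene Rpl6l fell by 0.20, 0.18 and 0.18, and each of these calls was lost when any of several single libraries was left out. The adjusted p of Rpl31 was 0.0599 without control replicate 1, 0.0928 without RANKL + UD replicate 2 and 0.105 without RANKL + UD replicate 3. With limma on log2(FPKM + 1) those of Rpl31 and Rpl23 were 0.0674 and 0.154. That of Rpl6l was 0.0923 with no filter, 0.0863 without control replicate 1, 0.095 without control replicate 3 and 0.175 without RANKL + UD replicate 3. That of Rpl23 was 0.271 without control replicate 1, 0.0626 without control replicate 2, 0.0519 without RANKL replicate 1, 0.221 without RANKL + UD replicate 2 and 0.2 without RANKL + UD replicate 3.

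The largest differences above control with UD were those of Rps3a3, Rpl41, Rplp0, Rps27l and Rpl36al. Of these, Rps3a3 (log2 fold change 0.19, adjusted p = 0.367) and Rps27l (0.01, adjusted p = 0.952) had not passed the test in RANKL against control. Rpl41 was higher by 0.48 ± 0.05 on the log2 scale (SE; adjusted p = 1.02e-07) and Rplp0 by 0.41 ± 0.06 (adjusted p = 4.04e-06), with no overlap of the libraries. Rps3a3, a copy of Rps3a1 with which it can share reads, had an FPKM of 16.1, 11.02 and 12.5 in control and of 23.0, 14.3 and 17.8 in RANKL + UD, which overlap. Its log2 fold change was 0.49 ± 0.18 (adjusted p = 0.0222), lost without control replicate 2 (0.124), without RANKL + UD replicate 1 (0.193) and with limma on log2(FPKM + 1) (0.0972). Rpl36al, a paralog of Rpl36a, had an FPKM of 79.7, 72.8 and 56.8 in control and of 105, 79.3 and 80.4 in RANKL + UD, which overlap. Its log2 fold change was 0.34 ± 0.11 (adjusted p = 0.0111). This call was lost without control replicate 3 (0.0626), without RANKL + UD replicate 1 (0.125), with DESeq2 (0.0863) and with limma (0.0979). The numbers called rested on single libraries: 8 higher and 15 lower without RANKL + UD replicate 1, and 23 higher and 3 lower without control replicate 1. Without control replicate 3, 14 were lower, without RANKL + UD replicate 2, 3 were lower, and without RANKL + UD replicate 3, 2 were lower.

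**Figure D4:**
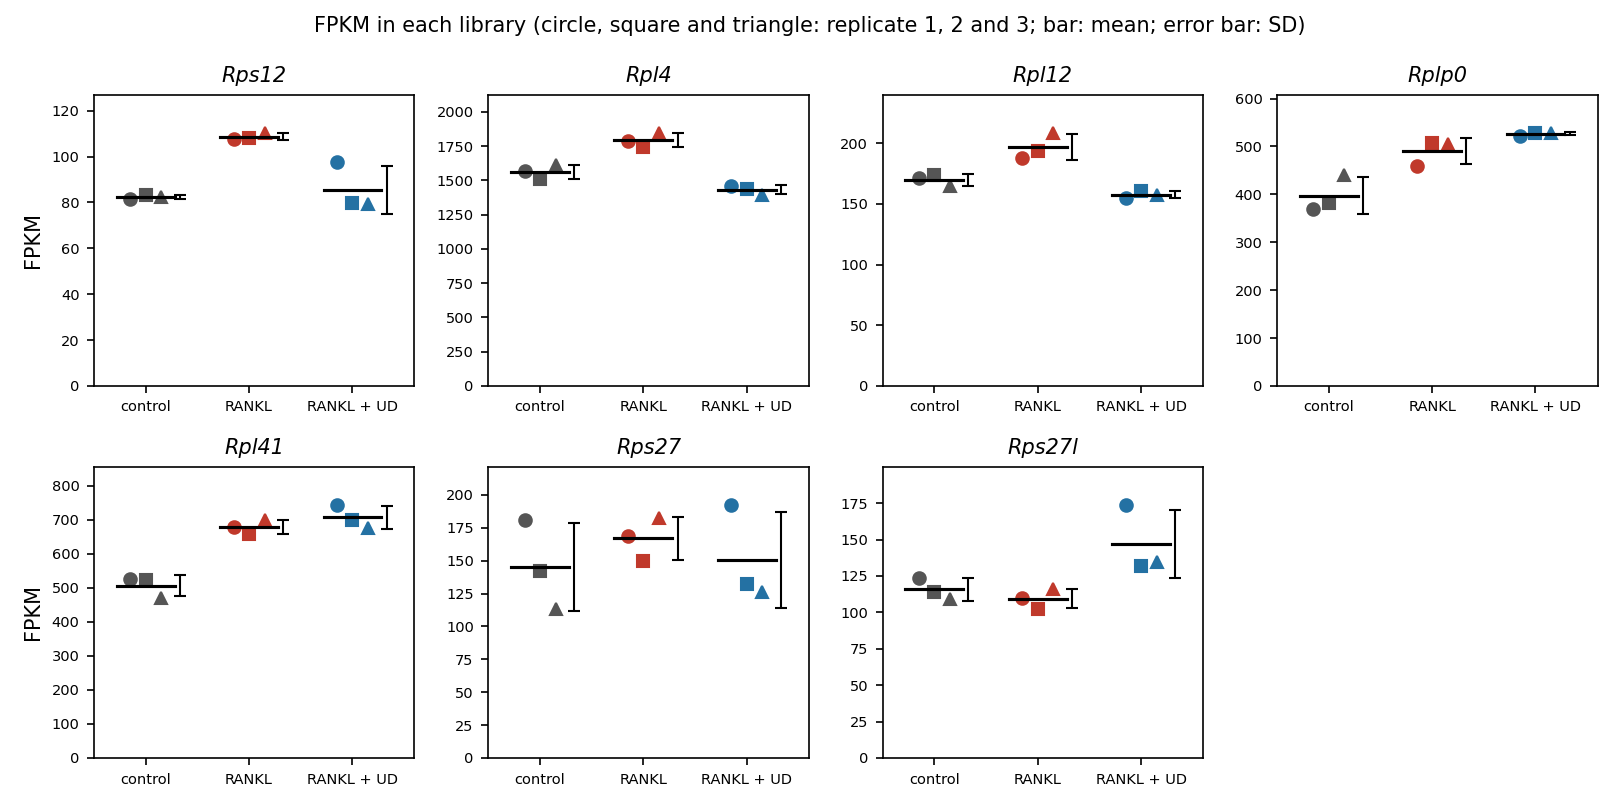
FPKM of 7 members in each of the 9 libraries, with linear axes from 0. Circles, squares and triangles are replicates 1, 2 and 3, bars are means and error bars SD (n = 3). Rps12, Rpl4 and Rpl12 are lower in RANKL + UD than in RANKL, Rplp0 and Rpl41 stay above control, and Rps27l is highest in RANKL + UD, where replicate 1 stands above the other 2.

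The balance between the subunits was compared by the log2 ratio of summed large to summed small subunit FPKM. It was 0.36, 0.35 and 0.38 in control, 0.34, 0.37 and 0.34 in RANKL and 0.30, 0.30 and 0.31 in RANKL + UD. The 3 RANKL + UD libraries lay below the other 6, by 0.05 on the log2 scale below the RANKL mean and by 0.06 below the control mean. The 3 groups differed by a one-sided exact permutation test (p = 0.0107 over 280 divisions). A two-sided test of 3 against 3 libraries cannot give a p under 0.1. With the difference of median log2 FPKM between the subunits in place of sums, the exact permutation p was 0.95. A sum is weighted towards the abundant genes, and a median is not.

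Of the 9 tested paralogs and retrogenes of ribosomal proteins, 3 were higher and 1 lower in RANKL against control (33.3% and 11.1%, against 27.3% and 30.2% of all genes). Their median log2 fold change was 0.19, that of the canonical genes 0.20. In RANKL + UD against RANKL 2 were higher and 1 lower (22.2% and 11.1%, against 18.6% and 20.2%), with a median of 0.02 where the canonical genes had -0.19. The difference between the lists was not tested. Rpl10l, Rpl39l and Rps4l had 0 counts in every library and Rpl3l, known from muscle, had a mean FPKM of 0.52. Rps27rt and Rps3a2, near copies of Rps27 and Rps3a1, had log2 fold changes of 0.02 ± 0.20 and -0.10 ± 0.06 in RANKL + UD against RANKL, and neither passed the test. Rps3a2 was higher in RANKL than in control by 0.20 ± 0.06 (adjusted p = 0.00724), a call lost with total counts (0.108), with limma on log2(FPKM + 1) (0.239) and without RANKL replicate 3 (0.0546). Rpl22l1, the paralog of Rpl22, was higher in RANKL by 0.33 ± 0.10 (adjusted p = 0.00621), and Rpl36al by 0.28 ± 0.11 (adjusted p = 0.0336). The call of Rpl22l1 was lost with limma on log2(FPKM + 1) (0.143). That of Rpl36al was lost with total counts (0.129), DESeq2 (0.141) and limma (0.295), and without control replicate 2 (0.0512), control replicate 3 (0.185), RANKL replicate 1 (0.056) or RANKL replicate 3 (0.178).

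Rps27l encodes a close relative of the small subunit protein Rps27 and is known as a p53 target. Its coding sequence is shown with that of Rps27 because reads of the pair must be told apart to measure either gene. Both have 255 coding bases including the stop codon, in the GENCODE M21 annotation of GRCm38, and 61 bases, in capitals, differ, an identity of 76.1%. Rps27 lies on the minus strand at chr3:90212522-90213651 and Rps27l on the plus strand at chr9:66946086-66949516, each with 4 exons in the transcript shown.
Rps27: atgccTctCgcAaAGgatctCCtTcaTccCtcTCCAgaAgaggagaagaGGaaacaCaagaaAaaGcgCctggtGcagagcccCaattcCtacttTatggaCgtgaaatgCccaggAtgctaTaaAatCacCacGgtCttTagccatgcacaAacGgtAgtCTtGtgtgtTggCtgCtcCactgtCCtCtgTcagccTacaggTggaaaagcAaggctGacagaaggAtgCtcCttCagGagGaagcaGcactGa
Rps27l: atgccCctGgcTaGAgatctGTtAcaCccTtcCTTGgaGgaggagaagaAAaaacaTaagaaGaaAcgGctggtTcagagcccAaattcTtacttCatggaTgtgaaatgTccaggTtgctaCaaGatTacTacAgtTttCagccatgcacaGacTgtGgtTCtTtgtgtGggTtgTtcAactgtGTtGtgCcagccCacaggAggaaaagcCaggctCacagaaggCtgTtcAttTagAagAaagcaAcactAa
Rps27l had an FPKM of 124, 114 and 109 in control, of 110, 103 and 116 in RANKL and of 174, 132 and 135 in RANKL + UD. The RANKL + UD libraries lay above the other 6, and control and RANKL overlapped. Rps27l was higher than in RANKL by 0.34 ± 0.08 on the log2 scale (SE; adjusted p = 0.00282) and higher than in control by 0.35 ± 0.08 (adjusted p = 0.00148). Rps27 had an FPKM of 181, 142 and 113 in control, of 168, 150 and 183 in RANKL and of 192, 133 and 126 in RANKL + UD, and passed none of the 3 tests.

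Rpl7l1, a paralog of Rpl7 found in precursors of the large subunit, was the only member lower in RANKL than in control. Its FPKM was 50.4, 49.7 and 46.9 in control, 38.6, 37.7 and 40.4 in RANKL and 46.0, 44.6 and 46.7 in RANKL + UD. It fell by 0.25 ± 0.05 on the log2 scale with RANKL (adjusted p = 0.000242) and was higher by 0.15 ± 0.05 with UD (adjusted p = 0.0231). The second call was lost without RANKL replicate 1 (0.0558), RANKL replicate 2 (0.108), RANKL + UD replicate 1 (0.0682) or RANKL + UD replicate 3 (0.0885).

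The log2 FPKM ratio of paralog to canonical gene was tested over the 3 groups for the 5 pairs of a fixed list in which both genes passed the filter. Other tested copies, such as Rps3a2, Rps3a3 and Rpl6l, were not on that list. The ratio of Rpl7l1 to Rpl7 averaged -3.49 ± 0.05 in control, -3.92 ± 0.02 in RANKL and -3.54 ± 0.07 in RANKL + UD (SD, n = 3; exact permutation p = 0.0143). That of Rps27l to Rps27 averaged -0.30 ± 0.24, -0.61 ± 0.06 and -0.02 ± 0.12 (SD, n = 3; exact permutation p = 0.0179). The ratios of Rpl22l1 to Rpl22 (exact permutation p = 0.00714) and of Rpl36al to Rpl36a (exact permutation p = 0.0214) also differed between groups. After adjustment over the 5 pairs these 4 exact permutation tests gave 0.0267, and Rps27rt to Rps27 gave 0.261. The p of Rps27l to Rps27 by the exact permutation test was 0.0571 without RANKL replicate 1 or RANKL replicate 3 and 0.0536 without RANKL + UD replicate 2. The exact permutation p was 0.0571 without RANKL + UD replicate 1 for both Rpl22l1 and Rpl36al, and 0.0679 without RANKL + UD replicate 3 for Rpl36al.

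Other genes of translation were read from lists and counted with TMM scaling only. Among all tested genes 27.3% were higher and 30.2% lower in RANKL against control, and 18.6% and 20.2% in RANKL + UD against RANKL. Of 22 genes of translation factors and other mRNAs known to carry a TOP tract, 15 were higher and 1 lower in RANKL than in control (median log2 fold change 0.20), and 16 were lower and none higher in RANKL + UD than in RANKL (median -0.19). The largest falls with UD were in Vim, an intermediate filament gene, by 0.56 on the log2 scale, and in Eif4a2, a helicase of initiation, by 0.37. Of 16 genes of mTORC1, its targets, LARP proteins and Myc, 8 were higher and 3 lower in RANKL against control. In RANKL + UD against RANKL 2 were higher (12.5%) and 4 lower (25%), near the shares of all genes. Myc, a driver of ribosome production, fell by 1.46 ± 0.07 (adjusted p = 1.59e-12) after a rise of 5.65 ± 0.10 with RANKL (adjusted p = 1.31e-20). Eif4ebp1, a repressor of cap-dependent initiation and a target of mTORC1, fell by 1.08 ± 0.09 (adjusted p = 4.72e-09) after a rise of 1.08 ± 0.09 (adjusted p = 7.44e-10). Larp1b and Eif4ebp2 were higher with UD, both by 0.23. Of 8 tested genes listed as chaperones of ribosomal proteins or factors of ribosome assembly, 2 were higher in RANKL against control. In RANKL + UD against RANKL 3 were higher, with none lower in either. The second 3 were led by Heatr3, which escorts Rpl5, at 0.35 ± 0.05 (adjusted p = 2.2e-05), and Grwd1, which escorts Rpl3, at 0.25 ± 0.09 (adjusted p = 0.0392). Of 6 genes of the p53 response to impaired ribosome assembly 3 were higher and 2 lower in each of these comparisons.

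The mitochondrial ribosome has its own proteins, also made from nuclear genes, and 78 of the 84 such genes in the table were tested. In RANKL against control 29 were higher and 2 lower (37.2% and 2.56%, against 27.3% and 30.2% of all genes), with a median log2 fold change of 0.17. In RANKL + UD against RANKL 19 were higher and 2 lower (24.4% and 2.56%, against 18.6% and 20.2%), with a median of 0.11. Against control 46 were higher and 1 lower (59.0% and 1.28%, against 26.7% and 27.3%), with a median of 0.28. The log2 ratio of summed cytosolic to summed mitochondrial ribosomal protein counts needs no scaling between libraries. It was 4.23, 4.19 and 4.19 in control, 4.25, 4.21 and 4.26 in RANKL and 3.99, 3.91 and 3.89 in RANKL + UD. The 3 RANKL + UD libraries lay below the other 6, with a mean 0.31 below that of RANKL and 0.28 below that of control. The groups differed by a one-sided exact permutation test (p = 0.00714 over 280 divisions). This comparison was added after the counts of both gene sets had been seen.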

How the data were processed

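The deposited table gives counts and FPKM per gene for 9 libraries of RAW264.7 cells, 3 per group, grouped by their labels, and all 18 value columns were matched to a library by name. Per the labels and the paper, the authors sequenced total RNA extracted with TRIzol on an Illumina NovaSeq. The deposited counts are raw whole reads per gene. The authors' FPKM divides them by exonic length and library total, and 100% of the deposited FPKM values were recomputed to within 0.006. The submitters' processing notes name the mouse build mm10. Of the 94 members only 1 had the coordinates of the GRCm38 annotation, so no coordinates from the table are printed. The aligner, the counting tool and its strand setting are not given in the sources used here. Of the members, 14 overlap a tested gene on the other strand (for example Rpl12 with Lrsam1, Rpl5 with Dipk1a and Rps25 with Trappc4), and such reads may not be told apart.

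The fit used edgeR 4.0.16 (R 4.3.3) with TMM scaling, the quasi-likelihood test, all 9 libraries together and Benjamini-Hochberg adjustment over 11995 genes that had FPKM 1 or more in 3 or more libraries. Limma 3.58.1 on log2(FPKM + 1) and DESeq2 1.42.0 were alternatives, as were other scalings, filters, a block by replicate number and leaving out each library. Single values were compared over the 3 groups by exact permutation tests of the share of variance between groups, one-sided towards a larger share (scipy 1.17.1). Pairs of groups were compared by two-sided exact permutation tests. The fit was tested on simulated data with known changes. It recovered 31% of 100 genes changed by 0.3 on the log2 scale and 89% of 100 changed by 1, with 5 false calls. No pair of replicates agreed within sampling noise (chi-square per degree of freedom 2.98 to 9.54).

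The members and gene lists were chosen with earlier results of these data known. Described by name were the stalk, 5S particle, ubiquitin fusion, S6 and paralog lists, the 5 largest rises and 5 largest falls called in each comparison, the 3 highest and 3 lowest tested members, and, from the lists of other translation genes, the 2 largest changes in each direction in RANKL + UD against RANKL. Rps27, Rpl22, Rpl7 and Rpl36a were named as partners of a paralog. Single results of some genes that this rule takes are not reported here. Of the listed symbols, Rpl26-rs and Bxdc1, matched no gene of the table. The promoter windows are from RefSeq and the coding sequences from GENCODE M21.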

Additional observations from a re-analysis of the deposited data

Results flagged for a closer look

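Ribosomal protein pseudogenes, which the comparisons above do not use, also held counts. The table lists 322 of them, and together they took 0.308% of counts in control, 0.355% in RANKL and 0.330% in RANKL + UD (means of 3 libraries). The range was 0.283 to 0.325% in control and 0.342 to 0.375% in RANKL, so the RANKL libraries lay above the control libraries, as they did for the members themselves. It was flagged as signal outside the main measurement that is higher than in control. Reads from a member can be counted on a pseudogene copy and the reverse, and their part in these values was not tested.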

How the results depend on the processing

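No named member that passed the test changed direction under any setting that was run, and 1618 of 1767 of their results stayed on the same side of the threshold. With total counts, 33 members were higher in RANKL than in control (median log2 fold change 0.11) and 23 lower in RANKL + UD than in RANKL (median -0.10). Limma on log2(FPKM + 1) gave 25 (median 0.11) and 13 (median -0.10), and with a pseudocount of 0.1 it gave 23 (0.11) and 11 (-0.10). In RANKL + UD against control, limma gave 7 higher and 4 lower, and 5 and 2 with a pseudocount of 0.1. With no filter 27 were higher. DESeq2 gave 51 and 49 for the first 2 counts. The cause of these differences was not tested, apart from the scaling, which is part of the FPKM values.

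The TMM-scaled total and the medians were chosen after seeing the data. With the TMM-scaled total the groups explained 76.8% of the variance of the member share (exact permutation p = 0.025), and the differences were 0.8214 and -0.7339 percentage points for RANKL against control and RANKL + UD against RANKL. For the subunit ratio, sums of counts gave -0.0615 and -0.1015 for RANKL and RANKL + UD against control. Medians in place of sums gave 0.0176 and 0.0029 (reversed) for these, -0.0147 for RANKL + UD against RANKL, and 1.47% of the variance between groups.

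Leaving out 1 library at a time gave 43 to 56 members higher in RANKL than in control, 31 to 63 lower and 1 to 2 higher in RANKL + UD than in RANKL, and 8 to 23 higher and 2 to 15 lower in RANKL + UD than in control. The variance between groups ranged from 46.9 to 75.7% for the member share, 62.3 to 75.7% for Rpl22l1 to Rpl22, 68.3 to 86.0% for Rpl36al to Rpl36a and 71.9 to 89.5% for Rps27l to Rps27. With 15951800 to 19746862 counts a library and 3 libraries a group, changes of this small size may be missed.

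Not every pair of same-numbered libraries deviated together, so the numbers were not taken to pair the libraries: the correlations of their deviations were -0.02 to 0.10 over the tested genes. Over the members they were 0.34 to 0.67 for the 3 pairs of replicate 1, -0.09 to 0.43 for replicate 2 and -0.27 to 0.24 for replicate 3. With a replicate block 55 members were higher in RANKL than in control, 55 lower in RANKL + UD than in RANKL, and 19 higher and 11 lower in RANKL + UD than in control.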
